A study of Mus musculus with 24 samples.

Results

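The genes described here encode the machinery of fatty acid oxidation and the PPAR receptors that regulate it. A list of 32 genes was drawn up by name, and 31 of them were found among the 18194 genes measured in the series, each read through 1 probe set, the one of highest mean signal among those that name a single gene. Acsl1 was not analysed here. The study measured RNA from tubules of mouse kidney on 24 oligonucleotide arrays, of which 12 held distal convoluted tubules pooled with connecting tubules (DCT/CNT) and 12 held cortical collecting ducts (CCD). All animals were male C57BL/6J mice of 25-30 g, on standard chow and in 12 h of light and 12 h of dark, and their age is not given in the sources used here. Left kidneys were treated with collagenase and dissected at 6 zeitgeber times (ZT), which count hours from lights on, so that ZT12 is lights off. Each segment and time had 2 pools of RNA, made from 5 animals per time, and each array received material amplified from 10 ng of RNA. Whether the pools of a time share animals, and whether both segments came from the same animals, is not given in the sources used here. The segments were fitted as unpaired. The p-values of segment differences rest on the spread between pools, which may be technical. Those of the fitted 24 h curves rest also on how far the time means depart from the curve.

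Long-chain fatty acids enter a cell through carriers such as CD36, are bound in the cytosol by fatty acid binding proteins, and are either stored in lipid droplets or activated to acyl-CoA. The carnitine shuttle carries the acyl groups into the mitochondrion, where acyl-CoA dehydrogenases, hydratases, hydroxyacyl-CoA dehydrogenases and thiolases shorten them in repeated cycles and pass electrons to the respiratory chain through the electron transfer flavoproteins. The nuclear receptors PPARα, PPARδ and PPARγ bind fatty acids and activate many genes of this pathway with coactivators such as PGC-1α. In the kidney the proximal tubule is the segment best known for a high rate of fatty acid oxidation. The distal convoluted tubule also contains many mitochondria.

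Values are the deposited log2 expression values, in which 1 unit is a 2-fold difference. The 9 measured markers of the distal convoluted and connecting tubules all had higher means on DCT/CNT arrays. Slc12a3 lay between 8.48 and 12.09 there and between 4.48 and 6.01 on CCD arrays. The 9 principal cell markers all had lower means on DCT/CNT arrays. Aqp2 lay between 7.76 and 8.23 there and between 9.91 and 10.59 on CCD arrays. After quantile normalisation, 9 of the former were called higher in DCT/CNT and 6 of the latter lower. The mean of 15 proximal tubule markers ranged from 6.81 to 8.40 on DCT/CNT arrays and from 6.96 to 8.48 on CCD arrays, so that RNA of this cell type varied between pools of both segments. The values of a DCT/CNT array were spread less widely than those of a CCD array, with an interquartile range over all probe sets of 3.49 (SD 0.113, n = 12) against 4.20 (SD 0.072, n = 12). In the deposited values, the 4549 genes of highest mean signal differed between the segments by a median of -0.43 (DCT/CNT minus CCD) and the 4549 of lowest by 0.30, while after quantile normalisation these medians were -0.01 and 0.07. Of the 31 fatty acid oxidation and PPAR genes, 20 were among these 4549 of highest signal, which is a property of probes as well as of transcripts. Each segment difference below is therefore given in both scalings.

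By limma's moderated test at an adjusted p under 0.05, 24 of the 31 genes differed between the segments in the deposited values, against 77.4% of all genes. Of the 31, 7 were higher in DCT/CNT (22.6%) and 17 were lower (54.8%), against 30.4% and 47% of all genes. After quantile normalisation 16 were higher and 1 was lower, against 36% and 29.6% of all genes. The median difference of the 31 genes was -0.19 in the deposited values and 0.15 after quantile normalisation, beside -0.13 and 0.04 over all genes. The sign of the difference turned for 11 of the 31 genes after quantile normalisation, and other genes gained or lost a call with their sign kept. Fabp3, Angptl4, Cpt1a, Acads, Hadh, Acat1 and Ppargc1a were called higher in DCT/CNT, and Acot2 lower, in the deposited values, after quantile normalisation and with the arrays brought to equal medians alike. The share of all genes called alike in these 3 scalings was 22.6% for higher and 22.7% for lower. In bulk pools, fewer cells of a type and less RNA per cell cannot be told apart.

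**Figure D1:**
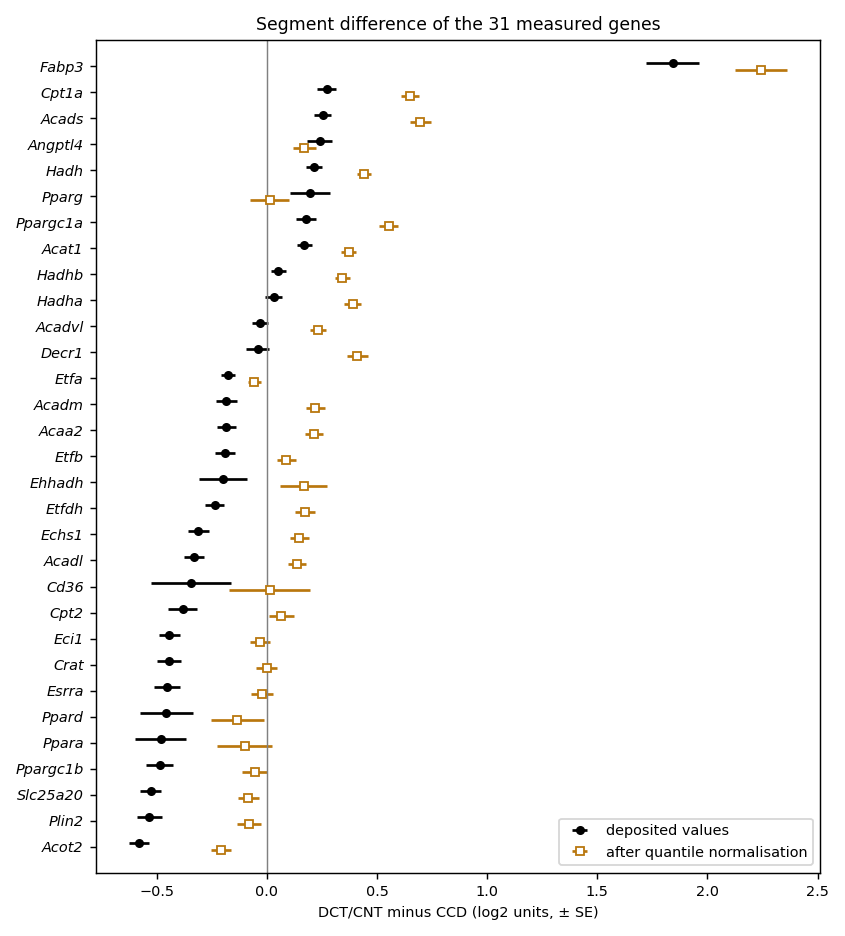
Difference between the segments (DCT/CNT minus CCD, log2 units) of the 31 genes, sorted by the deposited values. Black circles are deposited values, open squares are values after quantile normalisation, and bars are the standard error (SE). Fabp3 lies far to the right in both scalings, and the squares lie to the right of the circles for all genes except Angptl4 and Pparg.

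Fabp3, which encodes the fatty acid binding protein of heart and muscle, had the largest segment difference of the 31 genes. On DCT/CNT arrays its values in pools 1 and 2 were 9.66 and 8.87 at ZT0, 9.32 and 9.47 at ZT4, 8.72 and 9.00 at ZT8, 9.92 and 10.32 at ZT12, 9.18 and 10.18 at ZT16, and 9.83 and 9.57 at ZT20. On CCD arrays they were 7.63 and 7.72 at ZT0, 7.62 and 8.07 at ZT4, 8.01 and 8.12 at ZT8, 7.70 and 7.62 at ZT12, 7.33 and 7.76 at ZT16, and 7.36 and 6.99 at ZT20. The lowest DCT/CNT array lay above the highest CCD array. The difference was 1.84 (SE 0.12), or 3.58-fold, with an adjusted p of 1.68e-09 (limma), and after quantile normalisation it was 2.24, or 4.74-fold. A second probe set of Fabp3 differed in the same direction by 0.71. Fabp3 was lowest among DCT/CNT arrays on both arrays of ZT8, on pool 2 of ZT0 and on pool 1 of ZT16.

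The mean of the 9 distal convoluted and connecting tubule markers was 10.06 and 10.15 on the arrays of ZT8, 10.27 on pool 2 of ZT0 and 10.10 on pool 1 of ZT16, and between 10.79 and 11.24 on the other DCT/CNT arrays. On CCD arrays it was between 8.20 and 8.76. These markers were thus low on the same DCT/CNT arrays as Fabp3, and their part in the values of Fabp3 was not tested.

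**Figure D2:**
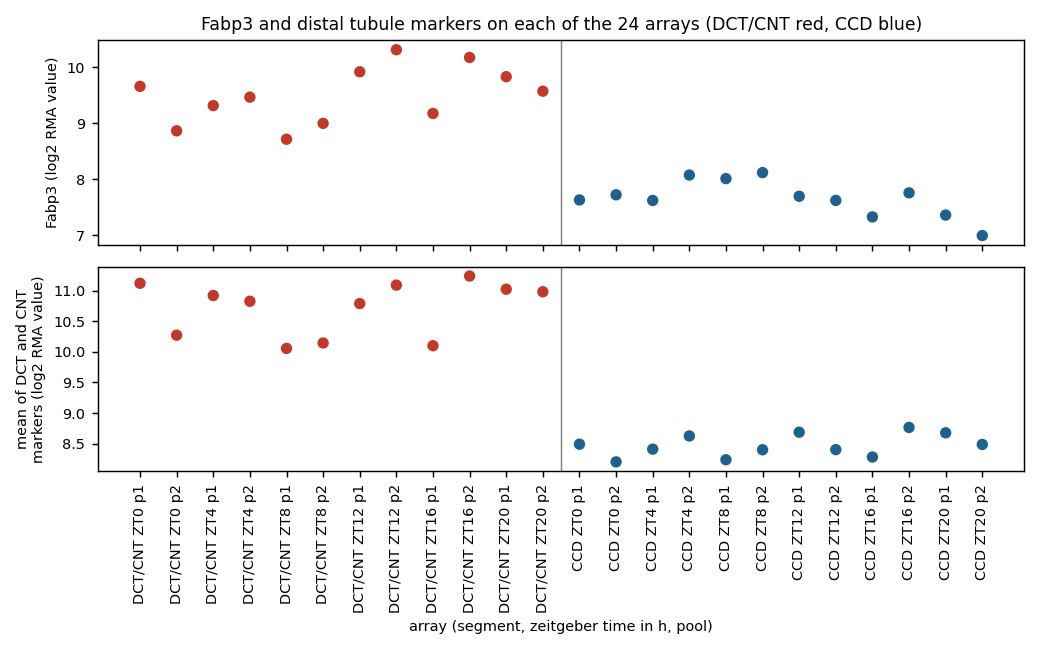
Fabp3 (upper panel) and the mean of 9 distal convoluted and connecting tubule markers (lower panel) on each of the 24 arrays, both in log2 units, with DCT/CNT in red and CCD in blue. Both quantities separate the segments, and both are low on the DCT/CNT arrays ZT0 pool 2, ZT8 pools 1 and 2 and ZT16 pool 1.

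The other genes of uptake and storage differed less. Angptl4, a secreted inhibitor of lipoprotein lipase and a classical PPAR target, was higher in DCT/CNT by 0.24 (SE 0.06, adjusted p = 0.00113) and by 0.17 after quantile normalisation (adjusted p = 0.00923). Its signal was low, with means of 5.65 in DCT/CNT and 5.41 in CCD. The 4548 genes with a mean signal of 4.84 to 6.81 differed by a median of 0.14, and of 0.12 after quantile normalisation. Plin2, which coats lipid droplets, had a difference of -0.53 in the deposited values and was lower in DCT/CNT (SE 0.06, adjusted p = 3.32e-07), and was not called after quantile normalisation (a difference of -0.08, adjusted p = 0.191). Cd36, the fatty acid translocase, was not called in either scaling, with a deposited difference of -0.34 (95% confidence interval -0.73 to 0.05) and 0.01 after quantile normalisation. The 2 other Cd36 probe sets had lower values in DCT/CNT in both scalings, with deposited differences of -0.73 and -0.84, and -0.62 and -1.03 after quantile normalisation. Cd36 is also abundant in endothelial cells, macrophages and adipocytes. The mean of 8 endothelial markers ranged from 8.07 to 8.40 in DCT/CNT and from 7.94 to 8.50 in CCD, that of 9 macrophage markers from 5.96 to 6.45 and from 5.84 to 6.36, and that of 4 adipocyte markers from 4.24 to 4.51 and from 4.02 to 4.62. Adipoq, which defines adipocytes, lay between 2.22 and 2.73 in DCT/CNT and between 2.43 and 2.90 in CCD.

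In the carnitine shuttle, Cpt1a stood apart from its partners. Cpt1a encodes the outer membrane carnitine palmitoyltransferase that commits acyl groups to oxidation. Its values ran from 11.32 to 11.64 in DCT/CNT and from 10.99 to 11.46 in CCD, and its group mean was higher in DCT/CNT at 6 of 6 times. The difference was 0.27 (SE 0.04, 1.21-fold, adjusted p = 2.26e-05) and 0.65 after quantile normalisation (1.57-fold, adjusted p = 3.61e-09). Slc25a20, the carnitine-acylcarnitine translocase, Cpt2, the inner membrane palmitoyltransferase, and Crat, carnitine acetyltransferase, were lower in DCT/CNT in the deposited values by -0.53, -0.38 and -0.45 (adjusted p = 8.59e-08, 8.70e-05 and 2.04e-06). After quantile normalisation their differences were -0.08, 0.07 and -0.00 and none was called (adjusted p = 0.129, 0.332 and 0.985). The difference between Cpt1a and these 3 genes was not tested. The 2 other Cpt1a probe sets gave deposited differences of 0.10 and 0.04, and 0.52 and 0.47 after quantile normalisation.

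Among the acyl-CoA dehydrogenases, which open each cycle on fatty acids of different chain length, the short-chain enzyme Acads was higher in DCT/CNT. Its difference was 0.25 (SE 0.04, adjusted p = 2.48e-05) and 0.70 after quantile normalisation (1.62-fold, adjusted p = 5.13e-09), with the group mean higher at 6 of 6 times. The medium-chain enzyme Acadm and the long-chain enzyme Acadl were lower in the deposited values (-0.18 and -0.33) and higher after quantile normalisation (0.22 and 0.14), and both were called each time. The very-long-chain enzyme Acadvl differed by -0.03 (95% confidence interval -0.11 to 0.05) and, after quantile normalisation, by 0.23 (adjusted p = 4.05e-05).

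Among the later steps, Hadh and Acat1 were higher in DCT/CNT in every scaling. Hadh, the short-chain 3-hydroxyacyl-CoA dehydrogenase, lay between 12.66 and 12.95 on DCT/CNT arrays and between 12.49 and 12.64 on CCD arrays, without overlap. Its difference was 0.21 (SE 0.04, adjusted p = 6.38e-05) and 0.44 after quantile normalisation, and its other probe sets differed by 0.25 and 0.35. Acat1, the mitochondrial acetoacetyl-CoA thiolase, lay between 12.78 and 12.99 in DCT/CNT and between 12.60 and 12.77 in CCD, again without overlap. Its difference was 0.17 (SE 0.03, adjusted p = 0.000304) and 0.37 after quantile normalisation, but its other probe sets differed by 0.08 and -0.04 in the deposited values, and the mean of its probe sets was not called (0.07, adjusted p = 0.0887). Fabp3, Hadh and Acat1 were the 3 genes of the 31 whose arrays did not overlap with DCT/CNT higher, against 8.43% of all genes, and Eci1 and Esrra were the 2 with DCT/CNT lower, against 19.4% of all genes.

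Hadha and Hadhb encode the α and β subunits of the trifunctional protein, which carries out the last steps of each cycle on long chains. They differed by 0.03 and 0.05 in the deposited values, were not called (95% confidence intervals -0.05 to 0.11 and -0.02 to 0.13), and were both higher after quantile normalisation, by 0.39 and 0.34. Echs1, the short-chain enoyl-CoA hydratase, and Acaa2, the mitochondrial 3-ketoacyl-CoA thiolase, were lower in the deposited values (-0.31 and -0.18) and higher after quantile normalisation (0.15 and 0.21). The other 2 Acaa2 probe sets were lower in DCT/CNT in both scalings, at -0.68 and -0.69 in the deposited values and -0.22 and -0.23 after quantile normalisation. Ehhadh, the peroxisomal bifunctional enzyme, was not called in either (-0.20 and 0.17).

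Acot2, a mitochondrial acyl-CoA thioesterase that releases free fatty acids from acyl-CoA, was the 1 gene of the 31 called lower in DCT/CNT in every scaling. On DCT/CNT arrays it lay between 10.81 and 11.65 and on CCD arrays between 11.47 and 12.09. The ranges overlapped, yet the group mean was lower in DCT/CNT at 6 of 6 times. The difference was -0.58 (SE 0.05, 1.49-fold, adjusted p = 1.21e-08) and -0.21 after quantile normalisation (1.15-fold, adjusted p = 0.000906). A second Acot2 probe set differed by -0.28 and, after quantile normalisation, by -0.07. Acot2 has close paralogs, which probes may also detect. Of the other auxiliary enzymes, Eci1, the enoyl-CoA isomerase needed for unsaturated chains, was lower by -0.44 in the deposited values and differed by -0.03 after quantile normalisation (adjusted p = 0.542), and Decr1, the dienoyl-CoA reductase, differed by -0.04 (adjusted p = 0.463) and by 0.41 (adjusted p = 2.59e-06). A second Decr1 probe set had the opposite sign to the latter, with -0.68 in the deposited values and -0.24 after quantile normalisation.

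Etfa and Etfb, the subunits of the electron transfer flavoprotein, and Etfdh, its dehydrogenase, were lower in DCT/CNT in the deposited values by -0.18, -0.19 and -0.24. After quantile normalisation Etfa and Etfb were not called (-0.06 and 0.09), and Etfdh was higher (0.17, adjusted p = 0.00263).

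Ppara and Ppard, the receptors most tied to oxidation, were lower in DCT/CNT by -0.48 (SE 0.12, adjusted p = 0.00147) and -0.46 (SE 0.12, adjusted p = 0.00258) in the deposited values and differed by -0.10 and -0.13 after quantile normalisation, where neither was called. These values rest on the probe sets used. Another Ppara probe set was higher in DCT/CNT by 0.20, and by 0.54 after quantile normalisation, and a further one was lower, by -0.25 and -0.21. A second Ppard probe set was higher in DCT/CNT by 0.10 in both scalings. Pparg, the adipogenic receptor, differed by 0.20 (95% confidence interval -0.00 to 0.39) and 0.01, and was not called. Ppargc1b, the coactivator PGC-1β, and Esrra, the estrogen-related receptor that acts with these coactivators, were lower by -0.49 and -0.45 in the deposited values and differed by -0.06 and -0.02 after quantile normalisation.

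Ppargc1a, which encodes PGC-1α, was called higher in DCT/CNT, but this rested on the probe set used. That probe set lay between 11.42 and 11.67 in DCT/CNT and between 11.27 and 11.48 in CCD, ranges that overlap, with a difference of 0.18 (adjusted p = 0.00188) and 0.55 after quantile normalisation. The other 4 Ppargc1a probe sets were lower in DCT/CNT, by -0.34, -0.39, -0.53 and -0.36, and after quantile normalisation they differed by 0.08, 0.03, -0.11 and 0.10. The mean of its 5 probe sets was lower in DCT/CNT (-0.29, adjusted p = 8.94e-06). Of the 19 genes with more than 1 probe set, 6 had a probe set with the opposite sign in the deposited values: Acat1, Crat, Hadhb, Ppara, Ppard and Ppargc1a. After quantile normalisation 12 of the 19 did, and these were Acaa2, Acadl, Cd36, Cpt2, Decr1, Esrra and Etfdh beside the same genes without Acat1.

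A 24 h rhythm was fitted to each gene as a cosine and sine curve in each segment and tested with limma's moderated F test. The amplitude, in log2 units, is how far the curve rises above its mean. In DCT/CNT, 4 of the 31 genes were called rhythmic (12.9%), against 6.57% of all genes: Acot2, Acaa2, Plin2 and Crat. In CCD, 2 were called (6.45%), against 2.47% of all genes: Acadvl and Echs1. None was called in both segments, beside 1.3% of all genes. The median amplitude of the 31 genes was 0.10 in DCT/CNT and 0.13 in CCD, beside 0.13 and 0.10 over all genes. For 14 of the 31 genes the fitted peak fell in the light phase in DCT/CNT and for 21 in CCD, called or not. Most of these curves were not called, and the share over all genes was not counted.

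**Figure D3:**
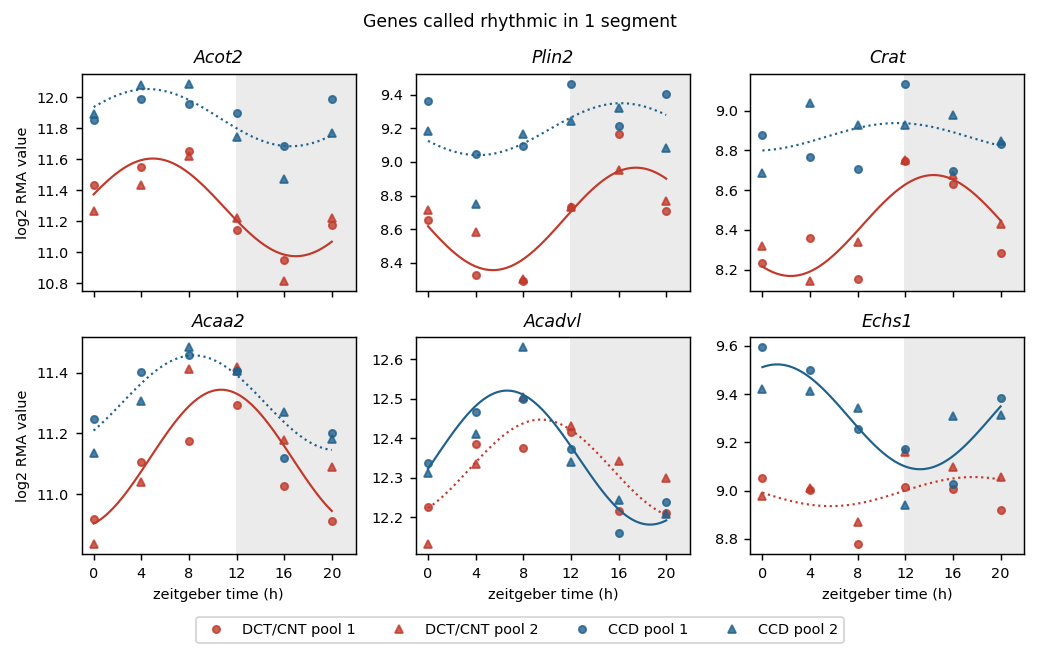
Log2 values of the 6 genes called rhythmic in 1 segment, by zeitgeber time, with each pool as a point (DCT/CNT red, CCD blue) and the dark phase shaded. Fitted 24 h curves are solid where the rhythm was called and dotted where it was not. Acot2 and Plin2 run opposite to each other in DCT/CNT, with peaks at ZT 4.97 and ZT 17.5.

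Acot2 peaked in the light. In pools 1 and 2 of DCT/CNT it was 11.43 and 11.26 at ZT0, 11.55 and 11.44 at ZT4, 11.65 and 11.62 at ZT8, 11.14 and 11.22 at ZT12, 10.95 and 10.81 at ZT16, and 11.17 and 11.22 at ZT20. Both pools of ZT8 were the highest and both of ZT16 the lowest. The fitted curve had an amplitude of 0.32 (SE 0.05), a 1.55-fold change from trough to peak, with its peak at ZT 4.97 (adjusted p = 0.00354), and a second probe set gave an amplitude of 0.45 with its peak at ZT 4.90. In CCD the amplitude was 0.18 with a peak at ZT 4.55 and was not called (adjusted p = 0.154). The test of the difference between the segments' rhythms gave an adjusted p of 0.744.

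Plin2 had the opposite phase. In pools 1 and 2 of DCT/CNT it was 8.66 and 8.71 at ZT0, 8.33 and 8.58 at ZT4, 8.29 and 8.30 at ZT8, 8.73 and 8.73 at ZT12, 9.17 and 8.95 at ZT16, and 8.71 and 8.77 at ZT20. Both pools of ZT16 were the highest and both of ZT8 the lowest, the reverse of Acot2. The amplitude was 0.30 (SE 0.06), or 1.52-fold, with a peak at ZT 17.5 (adjusted p = 0.0177), and in CCD the amplitude was 0.15 with a peak at ZT 16.2 (adjusted p = 0.434). The rhythm difference between the segments was not called (adjusted p = 0.731).

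Crat also peaked in the dark. In pools 1 and 2 of DCT/CNT it was 8.23 and 8.32 at ZT0, 8.36 and 8.14 at ZT4, 8.16 and 8.34 at ZT8, 8.75 and 8.75 at ZT12, 8.63 and 8.68 at ZT16, and 8.29 and 8.43 at ZT20. The 4 arrays of ZT12 and ZT16 lay above all others. The fitted amplitude was 0.25 (SE 0.06), or 1.42-fold, with a peak at ZT 14.4 (adjusted p = 0.0278), but the other Crat probe sets had amplitudes of 0.02 and 0.10, and the mean of its probe sets was not called (amplitude 0.11, adjusted p = 0.161). In CCD its amplitude was 0.07 (adjusted p = 0.841), and the rhythm difference was not called (adjusted p = 0.577). Leaving out any 1 of 4 arrays ended the call of Crat (DCT/CNT ZT4 pool 2, both of ZT12 and ZT16 pool 2, adjusted p up to 0.0675), and leaving out DCT/CNT ZT16 pool 1 ended that of Plin2 (adjusted p = 0.0534).

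The proximal tubule marker mean on DCT/CNT arrays was 6.95 and 6.88 at ZT4, 6.85 and 6.88 at ZT8, 8.33 and 8.40 at ZT12, 7.32 and 7.88 at ZT16, 7.56 and 8.04 at ZT20, and 7.72 and 6.81 at ZT0. It was thus low at ZT4 and ZT8, where Plin2 and Crat were also low, and highest at ZT12, where Crat was highest too. Plin2 was instead highest at ZT16 (9.17 and 8.95), with more Plin2 but a lower marker mean in pool 1 than in pool 2. At ZT20, with marker means of 7.56 and 8.04, Crat was 8.29 and 8.43, below its values at ZT12 and ZT16. Slc34a1, which defines the proximal tubule, lay between 6.84 and 8.96 on DCT/CNT arrays. With this mean and that of 7 thick ascending limb markers as covariates, Plin2 had an amplitude of 0.24 (adjusted p = 0.138) and Crat of 0.23 (adjusted p = 0.11), and neither was called. Without the covariates the amplitudes were 0.30 and 0.25. Acot2 kept its call with these covariates (amplitude 0.35, adjusted p = 0.0198). The rhythm calls in DCT/CNT over all genes fell from 1195 to 604 with them. The part of proximal tubule RNA in the rhythms of Plin2 and Crat was not tested.

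Acaa2 peaked close to lights off. In pools 1 and 2 of DCT/CNT it was 10.92 and 10.84 at ZT0, 11.11 and 11.04 at ZT4, 11.18 and 11.41 at ZT8, 11.29 and 11.42 at ZT12, 11.03 and 11.18 at ZT16, and 10.91 and 11.09 at ZT20. The group mean was highest at ZT12 and lowest at ZT0. The amplitude was 0.23 (SE 0.04, 1.37-fold, peak ZT 10.7, adjusted p = 0.00443), and the other probe sets gave 0.20 at ZT 11.5 and 0.17 at ZT 13.2. In CCD it was 0.16 with a peak at ZT 8.39 (adjusted p = 0.0833), and the rhythm difference was not called (adjusted p = 0.61).

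In CCD, Acadvl in pools 1 and 2 was 12.34 and 12.31 at ZT0, 12.47 and 12.41 at ZT4, 12.50 and 12.63 at ZT8, 12.37 and 12.34 at ZT12, 12.16 and 12.24 at ZT16, and 12.24 and 12.21 at ZT20. Both pools of ZT8 were the highest. The amplitude was 0.17 (SE 0.03, 1.26-fold, peak ZT 6.64, adjusted p = 0.0234), and in DCT/CNT it was 0.13 with a peak at ZT 9.48 (adjusted p = 0.0665). Echs1 in CCD was 9.59 and 9.42 at ZT0, 9.50 and 9.41 at ZT4, 9.26 and 9.34 at ZT8, 9.17 and 8.94 at ZT12, 9.03 and 9.31 at ZT16, and 9.38 and 9.31 at ZT20. Its group means were highest at ZT0 and ZT4 and lowest at ZT12 and ZT16, with an amplitude of 0.22 (SE 0.05, 1.35-fold, peak ZT 1.24, adjusted p = 0.0339), while in DCT/CNT its amplitude was 0.06 (adjusted p = 0.647). The rhythm differences of Acadvl and Echs1 were not called (adjusted p = 0.611 and 0.421). Both rhythms rested on few arrays: leaving out 1 array ended the call of Acadvl in 4 of 24 omissions (CCD ZT8 pool 1 and pool 2, ZT16 pool 1 and ZT20 pool 2) and that of Echs1 in 7 of 24 (CCD ZT0 pool 1, both of ZT4, ZT8 pool 1, both of ZT12 and ZT16 pool 1), with adjusted p up to 0.0948 and 0.13. Leaving out any 1 time ended both.

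Sequence just before the start sites was available for 25 of the 31 genes, from RefSeq in build GRCm38.p6, as windows of 250 bases before to 50 bases after the start. Plin2, Acadvl and Echs1 are shown because they were called rhythmic and hold letters that nuclear receptors or clock factors can bind. Binding was not measured. Acot2, also called rhythmic, held none of the searched elements in its window. Capitals mark the half-site AGGTCA of nuclear receptors, or its reverse TGACCT, and the E-box CACGTG. The Plin2 window is chr4:86670010-86670309 (minus strand), that of Acadvl chr11:70015379-70015678 (minus strand) and that of Echs1 chr7:140116372-140116671 (minus strand).
Plin2: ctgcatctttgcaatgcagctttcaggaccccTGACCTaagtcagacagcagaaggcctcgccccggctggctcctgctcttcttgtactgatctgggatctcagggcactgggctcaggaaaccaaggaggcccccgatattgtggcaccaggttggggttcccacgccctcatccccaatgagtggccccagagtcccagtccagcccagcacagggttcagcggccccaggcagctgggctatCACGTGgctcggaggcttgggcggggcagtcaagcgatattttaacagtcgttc
Acadvl: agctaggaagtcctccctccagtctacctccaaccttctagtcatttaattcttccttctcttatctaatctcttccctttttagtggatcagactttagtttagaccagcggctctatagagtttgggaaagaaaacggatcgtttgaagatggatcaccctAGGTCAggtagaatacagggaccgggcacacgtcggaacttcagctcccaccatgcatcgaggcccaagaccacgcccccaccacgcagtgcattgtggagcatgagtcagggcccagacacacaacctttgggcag
Echs1: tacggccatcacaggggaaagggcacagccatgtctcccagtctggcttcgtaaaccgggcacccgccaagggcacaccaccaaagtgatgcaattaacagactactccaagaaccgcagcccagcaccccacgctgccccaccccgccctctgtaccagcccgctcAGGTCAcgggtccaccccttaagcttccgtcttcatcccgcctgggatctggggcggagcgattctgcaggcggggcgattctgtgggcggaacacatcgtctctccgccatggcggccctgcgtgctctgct

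Counted from the start, the half-site began at -218 in Plin2, on the other strand, at -87 in Acadvl and at -83 in Echs1, and the E-box began at -4 in Plin2. On either strand, the half-site was found in 7 of the 25 genes (Acadm, Acadvl, Cd36, Cpt1a, Echs1, Plin2 and Pparg) and in 16.3% of all 32851 promoters of this length. The 25 genes had 27 windows. A gene was counted if any of its windows matched, while the shares are of single promoters. The E-box was found in Plin2 only and in 7.15% of all promoters. The element of PPAR with RXR, searched as 2 copies of AGGTCA in the same direction 1 base apart, the estrogen-related receptor element TNAAGGTCA and the D-box TTATGTAA were found in none of the 25 genes and in 0.0396%, 1.28% and 0.938% of all promoters. The half-site can overlap the first and second of these elements. A match describes the letters in this window and no match says only that these exact letters are not in it.

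**Figure D4:**
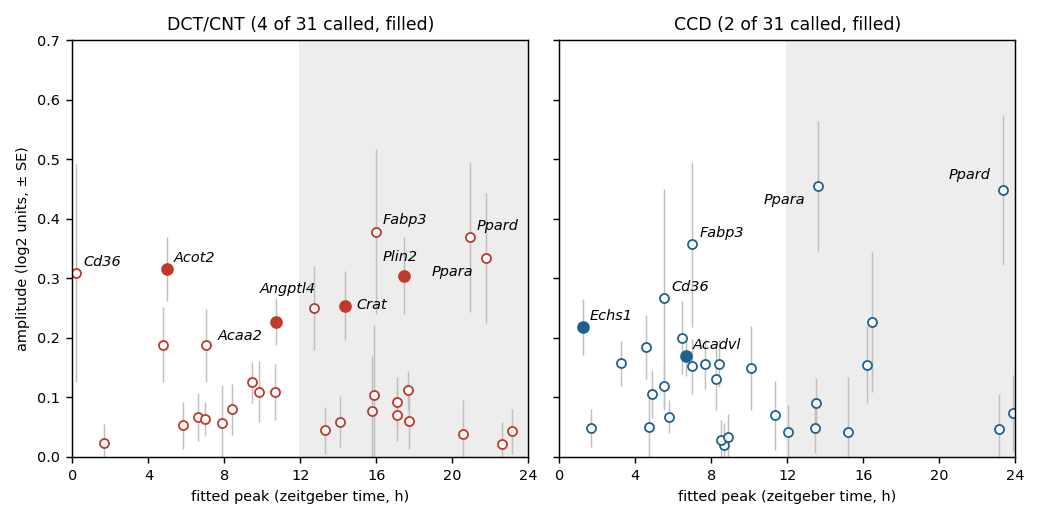
Fitted 24 h amplitude (log2 units, bars are the SE) against fitted peak time of the 31 genes in DCT/CNT (left) and CCD (right), with the dark phase shaded. Filled points are called rhythmic, 4 in DCT/CNT and 2 in CCD. Fabp3, Ppara and Ppard have larger fitted amplitudes than the called genes in CCD, with larger SE, and are not called.

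The other 25 genes were not called rhythmic in either segment. Slc25a20 had amplitudes of 0.19 and 0.20 in DCT/CNT and CCD with peaks at ZT 7.04 and ZT 6.45 (adjusted p = 0.131 and 0.194). Angptl4 had an amplitude of 0.25 with a peak at ZT 12.7 in DCT/CNT (adjusted p = 0.0756). Its group mean there was highest at ZT8 (pools of 6.00 and 5.98) and lowest at ZT4 (5.35 and 5.19). Etfdh and Cpt1a had amplitudes of 0.16 and 0.16 in CCD (adjusted p = 0.0661 and 0.118). Fabp3 had amplitudes of 0.38 and 0.36 with peaks at ZT 16 and ZT 6.99 (adjusted p = 0.185 and 0.374). The smallest fitted amplitudes included those of Hadhb, at 0.02 in both segments, and of Acat1, at 0.02 and 0.05.

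No gene of the 31 was called for a rhythm difference between the segments by limma, against 0.011% of all genes. At an unadjusted p under 0.05 there were 4, Fabp3, Hadh, Echs1 and Ppara, beside 1617 of all genes. In pools 1 and 2 of DCT/CNT, Ppara was 8.09 and 7.39 at ZT0, 7.40 and 7.76 at ZT4, 7.33 and 6.77 at ZT8, 7.03 and 7.64 at ZT12, 7.56 and 7.37 at ZT16, and 7.73 and 7.88 at ZT20. In CCD it was 7.32 and 7.60 at ZT0, 7.96 and 7.67 at ZT4, 7.79 and 7.91 at ZT8, 8.34 and 8.52 at ZT12, 8.79 and 8.03 at ZT16, and 7.69 and 8.11 at ZT20. In these deposited values, the pools of the segments overlapped at ZT0, ZT4 and ZT20. Both CCD arrays lay above both DCT/CNT arrays at ZT8, ZT12 and ZT16, with 2 pools per group. Over all times Ppara differed by -0.48, and by -0.10 after quantile normalisation, and single times were not compared in that scaling. The fitted peaks were ZT 21.8 in DCT/CNT (amplitude 0.33, adjusted p = 0.128) and ZT 13.6 in CCD (amplitude 0.45, adjusted p = 0.0617), and the rhythm difference had an unadjusted p of 0.000834 and an adjusted p of 0.364. The other Ppara probe sets did not show this gap, with peaks at ZT 17.9 and ZT 19.6 for 1 and at ZT 15.3 and ZT 12.7 for the other, in DCT/CNT and CCD.

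Ppard was low at ZT8 in DCT/CNT, with 6.54 and 6.16 there against 6.85 to 7.71 at the other times, and had fitted peaks at ZT 20.9 and ZT 23.4 in DCT/CNT and CCD (amplitudes 0.37 and 0.45, adjusted p = 0.15 and 0.136). Pparg had amplitudes of 0.08 and 0.04 and values between 4.60 and 5.54 over all arrays. Ppargc1a and Esrra had amplitudes between 0.03 and 0.05 in both segments, and Ppargc1b of 0.19 in DCT/CNT with a peak at ZT 4.79 (adjusted p = 0.143).

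**Figure D5:**
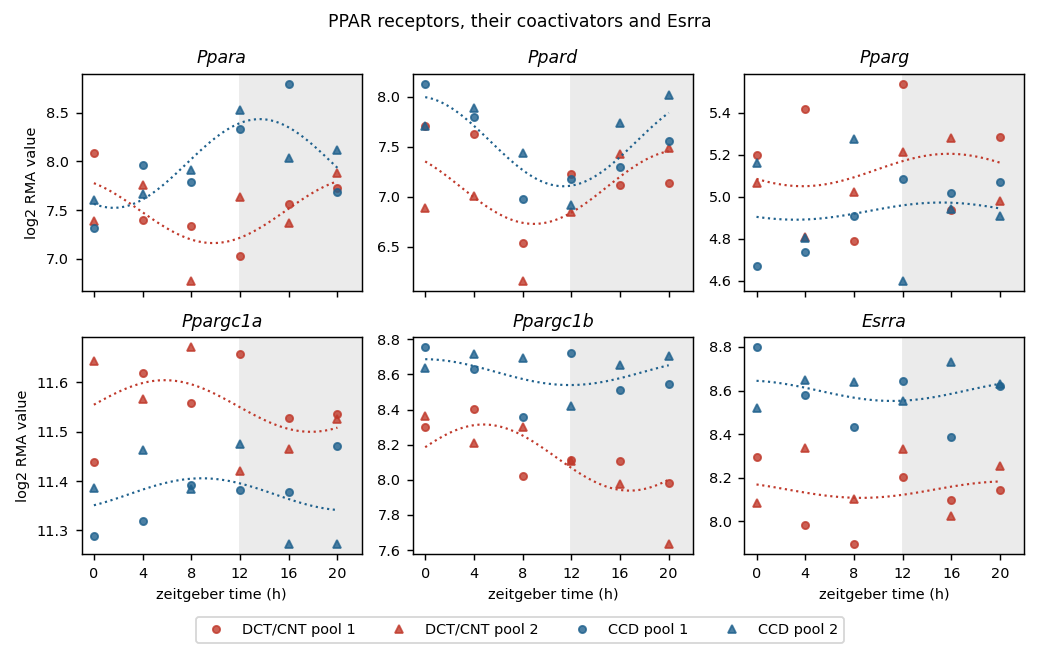
Log2 values of the 3 PPAR receptors, the coactivators Ppargc1a and Ppargc1b, and Esrra by zeitgeber time, with each pool as a point (DCT/CNT red, CCD blue), the dark phase shaded and fitted 24 h curves dotted because none was called rhythmic. The Ppara curves of the segments peak at ZT 21.8 and ZT 13.6, a difference that was not called (adjusted p = 0.364).

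Further genes of the pathway were taken from 5 lists, and the 4 with the smallest adjusted p in DCT/CNT are named for each. Of 14 further mitochondrial enzymes, 1 was called rhythmic in DCT/CNT and 0 in CCD (3 each at an unadjusted p under 0.05). That gene was Bdh1, which interconverts ketone bodies (amplitude 0.35, SE 0.09, peak ZT 21.0, adjusted p = 0.0433), followed by Acad11, the carnitine transporter Slc22a5 and Acad12, which were not called (adjusted p = 0.146, 0.193 and 0.329). The call of Bdh1 was lost in 14 of 24 omissions of 1 array (adjusted p up to 0.122), and kept without DCT/CNT ZT4 pool 2, ZT12 pool 1 or ZT16 pool 1 and without 7 of the CCD arrays. Of 16 peroxisomal genes, 1 was called in each segment, Eci2, an enoyl-CoA isomerase, with an amplitude of 0.52 (SE 0.06) and a peak at ZT 9.71 in DCT/CNT (adjusted p = 7.86e-05) and an amplitude of 0.37 with a peak at ZT 8.36 in CCD (adjusted p = 0.00369). The 1 called gene was 6.25% of the peroxisomal list in each segment, against 6.57% and 2.47% of all genes. Acox2, Abcd3 and Pex11a were not called in DCT/CNT (adjusted p = 0.0782, 0.0813 and 0.23).

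Of 15 further genes of uptake, activation and storage, 2 had a called rhythm in DCT/CNT and 1 in CCD, against 6.57% and 2.47% of all genes. Acsl5, an acyl-CoA synthetase, was called in both, with amplitudes of 0.41 and 0.43 (SE 0.04 in DCT/CNT) and peaks at ZT 2.87 and ZT 2.44, and kept both calls in every omission of 1 array. Pnpla2, the lipase that starts the breakdown of lipid droplets, had an amplitude of 0.26 and a peak at ZT 8.07 in DCT/CNT (adjusted p = 0.0424). The call of Pnpla2 was lost in 17 of 24 omissions of 1 array (adjusted p up to 0.131), and kept without DCT/CNT ZT8 pool 1 or ZT20 pool 2 and without 5 of the CCD arrays. Slc27a2 and Slc27a1, fatty acid transport proteins, were not called (adjusted p = 0.061 and 0.077). Of 9 other PPAR targets, Pdk4, the kinase that shuts off pyruvate dehydrogenase, was called in DCT/CNT with an amplitude of 0.71 (SE 0.12) and a peak at ZT 4.21 (adjusted p = 0.00386), and had an amplitude of 0.47 in CCD (adjusted p = 0.0927). Pdk4 was the 1 called of these 9 in DCT/CNT (11.1%), against 6.57% of all genes. Fabp1, Slc22a5 and Pex11a followed and were not called (adjusted p = 0.181, 0.193 and 0.23). Of 17 receptor partners, coregulators and related factors, the corepressor Nrip1 (amplitude 0.32, peak ZT 0.533, adjusted p = 0.0123) and the coactivator Ncoa2 (amplitude 0.21, peak ZT 4.90, adjusted p = 0.0249) were called in DCT/CNT. These were 2 of the 17 (11.8%), against 6.57% of all genes. In CCD 0 of the 17 were called and 4 had an unadjusted p under 0.05, beside 2576 of all 18194 genes. Ncoa2 lost its call without DCT/CNT ZT4 pool 2 or ZT16 pool 2 (adjusted p up to 0.0915) and with the mean of its probe sets (adjusted p = 0.482), as did Nrip1 with the latter (adjusted p = 0.113). Ncoa3 and Pprc1 were not called (adjusted p = 0.0504 and 0.0862).

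Between the segments, 5 of the 15 further uptake and storage genes were higher and 7 lower in DCT/CNT, and 9 were higher and 2 lower after quantile normalisation. Over all genes the shares were 30.4% higher and 47% lower, and 36% and 29.6% after quantile normalisation. The 4 with the smallest adjusted p were Acsl4 (-0.57, and -0.15 after quantile normalisation), Pnpla2 (-0.63 and -0.17), Fabp1 (0.48 and 0.20) and Lpl (1.58 and 2.02), and all were called in both scalings. Lpl, the lipoprotein lipase that Angptl4 inhibits, was thus higher in DCT/CNT, as Fabp3 was (adjusted p = 9.42e-07). Fabp1 was dim, between 4.46 and 4.82 in DCT/CNT and between 3.90 and 4.34 in CCD. It was among the 4549 genes of lowest signal, whose median differences were 0.30 and 0.07 in the 2 scalings. Of the 17 partners and coregulators, 12 were lower and 2 higher in the deposited values, against 6 lower and 7 higher after quantile normalisation, beside the same shares of all genes. Those with the smallest adjusted p were Crebbp (-0.98, and -0.55 after quantile normalisation), Nrf1 (-1.54 and -1.12), Med1 (-0.73 and -0.29) and Ncoa3 (-0.86 and -0.40), each lower in both scalings.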

How the data were processed

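RNA of 24 pools was amplified and hybridised to 24 oligonucleotide arrays with 45101 probe sets. The authors' deposited table holds RMA values, per the submitters' processing notes, on a log2 scale as is usual for RMA, since the log base is not stated. The RMA version, and whether both segments were normalised in 1 run, are not given in the sources used here. The number of arrays limits the precision.

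Values were used as deposited. Of the probe sets, 34958 name 1 gene symbol in the platform annotation, 932 several and 9211 none, and 34754 matched the RefSeq gene table (GRCm38.p6) by gene number, with 0 symbols updated. Each of 18194 genes was read from its probe set of highest mean signal on the 24 arrays. All genes were fitted with limma 3.58.1 in R 4.3.3: a 24 h cosinor with a mean, cosine and sine per segment and 1 variance per gene for rhythms, and 1 mean per segment and time for the segment difference (DCT/CNT minus CCD, averaged over the 6 times). Adjusted p-values (Benjamini-Hochberg over all genes) were called under 0.05. Standard errors are limma's, and standard deviations are between arrays. The fits were tested on simulated data.

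The genes and lists were chosen with earlier results of these data known. All of the 31 genes called in any comparison are described with their values. From each related list the 4 genes with the smallest adjusted p in the comparison described are named, and from marker lists examples among the first 3 measured genes, or Adipoq. Alternatives were quantile normalisation, equal array medians, a filter on dim genes, the mean of probe sets, a replicate block, array weights, marker covariates, an F test over group means, each segment fitted alone, and leaving out each array or time. The half-site was added to the searched elements after the data were seen.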

Additional observations from a re-analysis of the deposited data

How the results depend on the processing

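Of the 31 genes, 4 were called rhythmic in DCT/CNT. This count was 2 with the marker means of proximal tubule and thick ascending limb as covariates, with group means tested by F, and without ZT0 or ZT12, and 1 with the segment fitted alone or without ZT16. It was 3 to 5 when 1 array was left out. Acot2 lost its call without ZT16 (adjusted p = 0.0642), Acaa2 with group means tested by F (0.079), fitted alone (0.0856) and without ZT0 or ZT12 (up to 0.0736), and Plin2 fitted alone (0.0693) and without ZT8 or ZT16 (up to 0.172). The count of 2 in CCD was 4 without the dimmest 25% of genes, 5 with array weights, 0 with group means tested by F, 1 with the segment fitted alone, 0 to 4 when 1 array was left out and 0 without any 1 time (ZT0, ZT4, ZT8, ZT12, ZT16 or ZT20). Over all genes, the 1195 rhythm calls in DCT/CNT became 226 to 1477 and the 449 in CCD 117 to 846. Beside the fewer genes tested without dim genes and the fewer arrays where some were left out, the cause of these changes was not tested. No alternative called a rhythm difference for any of the 31 genes.

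For the segment difference, 24 of the 31 genes were called, 24 to 26 when 1 array was left out. Of the 31 genes, 7 were higher in DCT/CNT in the deposited values (7 to 8 without 1 array), 16 after quantile normalisation and 12 with equal array medians, and 17 were lower (17 to 19 without 1 array), against 1 and 10. The median of the 31 genes relative to the median gene was -0.065 (-0.088 to -0.048 without 1 array), and changed sign to 0.113 after quantile normalisation and to 0.097 without the dimmest 25% of genes, which moves the median gene. Quantile normalisation turned the sign of Cd36 (0.014), Cpt2 (0.066), Acadm (0.22), Acadl (0.14), Acadvl (0.23), Echs1 (0.15), Acaa2 (0.21), Ehhadh (0.17), Decr1 (0.41), Etfb (0.088) and Etfdh (0.17). Equal medians turned that of Acadm (0.026), Acadvl (0.18), Acaa2 (0.025), Ehhadh (0.011), Decr1 (0.17), Etfa (0.033) and Etfb (0.019), the mean of all probe sets that of Hadhb (-0.037) and Ppargc1a (-0.29), and the covariates that of Decr1 (0.0043). The arrays of the segments differ in their spread of values, which quantile normalisation makes equal, and which scaling is right for these pools was not tested.

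Over 66 pairs of groups, deviations of same-numbered pools correlated across genes with a median r of -0.0019 (-0.21 to 0.17). Of these pairs, 5 were over 0.1 and 7 under -0.1. Most of them join different times, and the pairs of both segments at the same time were not examined apart. Whether pool numbers pair the segments was therefore not tested. With the pool number as a replicate block, 4, 2, 0 and 24 of the 31 genes were called for the rhythm in DCT/CNT, the rhythm in CCD, the rhythm difference and the segment difference, as without it, while Bdh1 and Pnpla2 were no longer called for the rhythm in DCT/CNT (adjusted p = 0.0521 and 0.0505). The limits are few arrays per group, no detection calls for dim probe sets, and probe sets that may read related transcripts.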
